A study of Mus musculus with 183 samples.

Results

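The 10 mRNAs described here encode factors that detect, split and clear stalled or collided ribosomes: Zfp598, Ascc3, Pelo, Gtpbp2, Abce1, Ltn1, Nemf, Gigyf1, Gigyf2 and Eif4e2. They were chosen by gene name, and all 10 were found among the 53380 genes of the half-life count table and among the 7240 mRNAs of the relative binding table. The mouse embryonic stem cells (mESCs) were grown in serum and LIF on gelatin. In one line, clone 5F (Rosa26 Cre-ERT2/-, Skiv2l fl/fl), 4-hydroxytamoxifen (4OHT) activates a Cre recombinase fused to the estrogen receptor, designed to remove the exons for the catalytic part of SKIV2L, the helicase of the cytoplasmic exosome. The other line, clone 7E, also lacks Aven. Its labels read Rosa26 Cre-ERT2/BirA-V6, Skiv2l 3xFLAG-Avi/3xFLAG-Avi and Aven-/-. The methods give floxed Skiv2l alleles for this line as well. Each line is 1 clone, so that the lines differ in Aven, in the tag, in the biotin ligase BirA and in the level of Skiv2l mRNA before 4OHT, and these differences cannot be told apart. RNA was collected at day 0 and after 4 days in 0.1 µM 4OHT, from mock (DMSO) cultures and after 120, 240 or 360 min of actinomycin D, which blocks transcription. Each of the 16 groups held 3 libraries, except clone 5F at day 0 and 120 min with 2. The paper calls these replicates technical, so p-values here measure no spread beyond that between such libraries. In the decay tests the misfit of a straight line adds to it.

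A ribosome that stalls on an mRNA is hit by the one behind it. The ubiquitin ligase ZNF598, encoded by Zfp598, marks the collided pair, and the helicase ASCC3 pulls the leading ribosome apart. A ribosome at the end of a broken mRNA is instead opened by PELO, with GTPBP2 as a related partner factor, and the ATPase ABCE1 separates its subunits. On the freed large subunit NEMF holds the unfinished peptide for LTN1, a ubiquitin ligase that marks it for destruction, while GIGYF1 or GIGYF2 together with the cap-binding protein EIF4E2 shuts off further initiation on the same mRNA. The fragments left upstream of a stall are substrates of the SKIV2L exosome pathway, and AVEN is an RNA-binding partner of that complex. The comparisons ask whether the mRNAs of these factors differed in level or in decay between libraries in which SKIV2L, AVEN or both were targeted.

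Libraries held 24440935 to 34114250 counts on genes. Skiv2l was at 147 to 148 CPM (counts scaled to the library total) at day 0 and at 132 to 153 CPM at day 4 in the mock libraries of clone 5F. The difference was -0.01 ± 0.05 (log2, SE; adjusted p = 0.914 by edgeR), so these counts did not show a loss of Skiv2l in clone 5F, and the samples are called here the libraries labelled day 4. The floxed exons were not counted separately. In clone 7E Skiv2l was at 31.2 to 36.1 CPM at day 0 and at 12.4 to 13.8 CPM at day 4, a fall of 1.32 on the log2 scale (adjusted p = 7.78e-13 by edgeR). Skiv2l was thus already lower in clone 7E than in clone 5F at day 0, by -2.10 ± 0.05 (log2, SE; adjusted p = 1.06e-19 by edgeR). Aven in clone 7E was at 1.30 to 2.99 CPM against 32.1 to 36.1 CPM in clone 5F. All 7 pluripotency markers examined were above 1 CPM in every mock group, with a summed level of 2507 to 3152 CPM, whereas the trophoblast markers summed to 0.510 to 1.24 CPM and the fibroblast markers to 1.94 to 8.45 CPM. Primitive endoderm markers summed to 69.9 to 86.1 CPM in clone 5F and to 6.73 to 8.14 CPM in clone 7E, and neuroectoderm markers to 22.4 to 29.4 and 41.5 to 68.0 CPM. Markers of primed cells summed to 451 to 545 and 251 to 268 CPM, so that these sums moved with the clone. Most of the primed sum was Dnmt3b alone, with group means of 396 to 463 CPM in clone 5F and 182 to 202 CPM in clone 7E. Among the libraries with actinomycin D, the 12 whose label number is a multiple of 4 stood apart, with 2139 to 6640 CPM of the mitochondrial rRNA mt-Rnr2 against 11770 to 30710 CPM in the other 23. There is 1 such library in each group with actinomycin D and none in a mock group.

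Per kb of exon, the members spanned a wide range of levels in the 12 mock libraries. Abce1 (chromosome 8, 79683462 to 79711740, GRCm38) was the highest at 3196 to 5260 normalized read counts per kb, followed by Eif4e2 (chromosome 1, 87213914 to 87240488) at 806 to 1027. Ltn1 (chromosome 16, 87376651 to 87432612) lay at 638 to 716 and Zfp598 (chromosome 17, 24669687 to 24682016) at 559 to 656, so that these neighbours overlapped. The middle of the order was held by Gigyf2 (chromosome 1, 87326998 to 87450796) at 390 to 491 per kb and Nemf (chromosome 12, 69310522 to 69357165) at 304 to 370. Ascc3 (chromosome 10, 50592669 to 50851485) at 203 to 273 per kb, Gigyf1 (chromosome 5, 137518548 to 137527935) at 186 to 256 and Pelo (chromosome 13, 115088355 to 115090186) at 135 to 208 formed a run of overlapping ranges. Gtpbp2 (chromosome 17, 46161032 to 46169370) was the lowest at 74.6 to 91.2 per kb. This order depends on the length used, here all annotated exons joined. For Gigyf2 that is 14216 nt, beside 3876 nt for its transcript in the relative binding table. By the deposited median RPKM of tagged lines, Gigyf2 (72.6) and Nemf (49.5) lay above Zfp598 (22.3) and Ltn1 (16.8). Eif4e2 (332) was then close to Abce1 (340). All 10 are annotated as protein-coding genes. The level of Pelo is uncertain: the gene lies inside Itga1, and 46.19% of its exonic bases are shared with Gm49395 on the same strand and 29.25% with Gm10734 on the other. The TruSeq kit named in the labels does not mark the strand, and the counting mode named in the methods leaves out reads that fall on more than 1 gene, so Pelo may have been counted from part of its length only, which was not tested. These overlaps are those of Gencode M21. The methods name an earlier release for the counts, in which the overlaps were not checked. Nemf shares 166 exonic bases with Klhdc2, and Gigyf2 shares 623 with Kcnj13, each on the opposite strand.

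**Figure D1:**
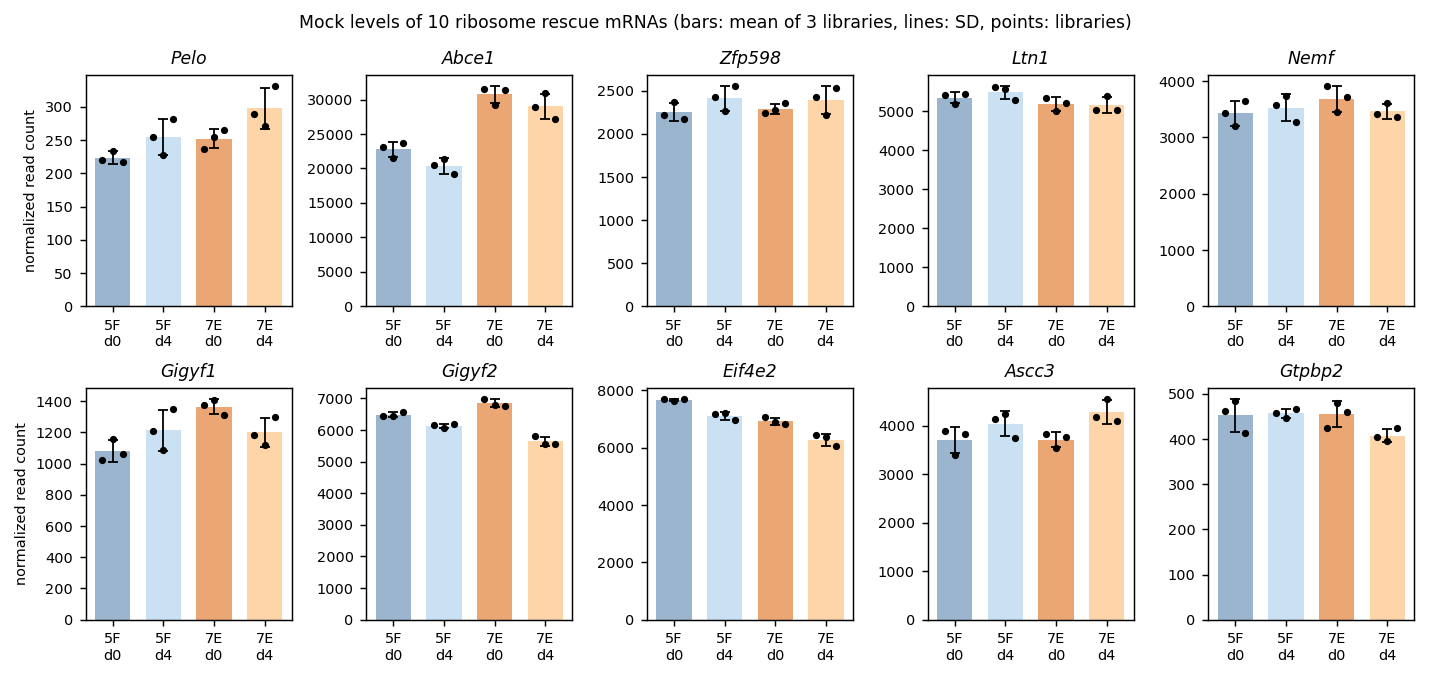
Normalized read counts (vertical axes, starting at 0) of the 10 mRNAs in the mock libraries of clones 5F and 7E at day 0 (d0) and day 4 (d4) of 4OHT. Bars are means of 3 libraries, lines are SDs and points are libraries. Abce1 stands at 29247 to 31582 in clone 7E at day 0, above the 21536 to 23624 of clone 5F, and Gigyf2 falls from at least 6767 to at most 5810 in clone 7E with 4OHT.

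The first comparison set the mock libraries of clone 5F labelled day 4 against those of day 0, a design meant to remove SKIV2L alone, although Skiv2l counts did not fall. Abce1, the recycling ATPase, was the single member that changed. It had 23136, 21536 and 23624 normalized counts at day 0 and 20518, 21437 and 19191 in the libraries labelled day 4. The ranges do not overlap, although the highest library labelled day 4 nearly reaches the lowest of day 0. The difference was -0.16 ± 0.05 (log2, SE, n = 3 and 3; adjusted p = 0.0204 by edgeR's quasi-likelihood test over 16349 genes).

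Of the 10 members, 0 were higher and 1 was lower in this comparison, when 12.8% of all genes were called higher and 11.6% lower. The median difference was 0.039 over the members and -0.005 over all genes tested (log2). Among the members that did not pass, Gigyf1 had 1021, 1160 and 1062 counts at day 0 and 1208, 1087 and 1348 at day 4, a difference of 0.17 ± 0.07 (log2, SE; adjusted p = 0.0935 by edgeR). Eif4e2 had 7699, 7638 and 7686 counts and then 7167, 7230 and 6961, groups that do not overlap, with a difference of -0.11 ± 0.04 (log2, SE; adjusted p = 0.0641 by edgeR). Pelo and Ascc3, at 0.18 and 0.13, also missed the threshold, and the 95% interval of every member's difference stayed within -0.26 and 0.39. The call of Abce1 was lost without the libraries of replicate 1 (adjusted p = 0.172) or of replicate 3 (adjusted p = 0.388). Without those of replicate 2, Zfp598 and Gigyf1 were called higher (0.18 and 0.29) and Eif4e2 lower (-0.12), and Ascc3 was called higher (0.20) without those of replicate 3.

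The second comparison was the same in clone 7E, in which Aven is deleted and Skiv2l counts fell with 4OHT. Gigyf1, Gigyf2 and Eif4e2 were lower at day 4 and Ascc3 was higher, that is 3 and 1 of the 10 members, when 19.4% of all genes were called lower and 20.7% higher. Gigyf2, the scaffold that recruits EIF4E2, had 6985, 6806 and 6767 counts at day 0 and 5810, 5559 and 5545 at day 4. The groups stand well apart, and the difference was the largest among the members that passed, at -0.28 ± 0.05 (log2, SE, n = 3 and 3; adjusted p = 2.32e-05 by edgeR). Gigyf1, its paralog, went from 1379, 1407 and 1310 counts to 1182, 1118 and 1302, with a difference of -0.18 ± 0.06 (adjusted p = 0.0218 by edgeR). Eif4e2 went from 7057, 6898 and 6826 counts to 6428, 6380 and 6046, with a difference of -0.14 ± 0.05 (adjusted p = 0.0164 by edgeR). Ascc3 went from 3828, 3546 and 3781 counts to 4185, 4558 and 4095, a rise of 0.20 ± 0.05 (adjusted p = 0.00294 by edgeR). In each of these 4 mRNAs the day 0 and day 4 libraries do not overlap.

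The median difference in clone 7E was -0.087 over the members and -0.008 over all genes (log2). Pelo had 237, 255 and 265 counts at day 0 and 290, 272 and 332 at day 4, a difference of 0.24 ± 0.10 that missed the threshold (adjusted p = 0.0553 by edgeR). Gtpbp2 had 424, 481 and 459 counts and then 404, 396 and 424, with a difference of -0.16 ± 0.08 (adjusted p = 0.126 by edgeR). Ltn1 and Nemf, the factors of the freed large subunit, differed by -0.01 ± 0.05 and -0.09 ± 0.05, and neither passed. The call of Gigyf2 held with the libraries of each replicate number left out. That of Gigyf1 was lost without replicate 1 or 2 (adjusted p = 0.181 and 0.23), that of Eif4e2 without replicate 1 or 3 (0.145 and 0.0631) or with the replicate block (0.0578), and that of Ascc3 without replicate 2 (0.0813).

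These levels are relative to the other genes of each library. The ratio of gene counts to ERCC spike-ins was 312 to 322 in the day 0 mock libraries of clone 7E and 151 to 156 at day 4, against 324 to 363 in clone 5F. Scaled by the spike-ins of each library, the median of all genes fell by 1.105 (log2) in clone 7E with 4OHT, and 90.1% of all genes were then called lower. All 10 members were among them, with Gigyf2 at -1.38 and Ascc3 at -0.90. This scaling moves all genes of a library alike. That Ascc3 fell less and Gigyf2 more than the median of all genes thus repeats the main test and is not separate evidence. Fewer cells and less RNA per cell cannot be told apart in such bulk samples.

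The lines were then compared at day 0, before 4OHT. Abce1 and Gigyf1 were higher in clone 7E than in clone 5F, and Eif4e2 was lower. The lines differ in Skiv2l (-2.10, log2) as well as in Aven in these libraries, and the parts of the differences cannot be told apart. For Abce1, the 31582, 29247 and 31372 counts of clone 7E all lie above the 23136, 21536 and 23624 of clone 5F, and the difference was 0.43 ± 0.04 (log2, SE, n = 3 and 3; adjusted p = 1.68e-08 by edgeR), or 1.35-fold. For Gigyf1, the 1379, 1407 and 1310 counts of clone 7E lie above the 1021, 1160 and 1062 of clone 5F, with a difference of 0.33 ± 0.06 (adjusted p = 4.26e-05 by edgeR). For Eif4e2, the 7057, 6898 and 6826 counts of clone 7E lie below the 7699, 7638 and 7686 of clone 5F, with a difference of -0.15 ± 0.04 (adjusted p = 0.00317 by edgeR).

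In this comparison 2 of the 10 members were higher and 1 was lower, when 20.0% of all genes were called higher and 19.7% lower. The median difference was 0.051 over the members and -0.006 over all genes (log2). Same-numbered libraries of the clones deviated together at day 0. With the replicate number as a block, 4 members were higher and 1 was lower, when 24.7% and 25.1% of all genes were, the additions being Nemf (0.11, adjusted p = 0.000685) and Gigyf2 (0.08, adjusted p = 0.00161). The call of Eif4e2 was lost without the libraries of replicate 3 (adjusted p = 0.0629), and those of Abce1 and Gigyf1 held with each replicate number left out. Zfp598, Ascc3 and Gtpbp2, which act on the stalled ribosome itself, differed by 0.02 ± 0.05, 0.01 ± 0.05 and 0.00 ± 0.08, and the 95% intervals lay within -0.16 and 0.16. Pelo, which also acts there, differed by 0.17 ± 0.09, with an interval of -0.02 to 0.36, and did not pass. The summed primitive endoderm, neuroectoderm and primed-cell markers given above, the last mostly Dnmt3b, also differed between the lines. Their part in these differences was not tested.

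Whether 4OHT acted differently in the lines was tested as an interaction over the 12 mock libraries. The change of Gigyf1 differed by -0.35 ± 0.10 (log2, SE; adjusted p = 0.0246 by edgeR) and that of Gigyf2 by -0.20 ± 0.05 (adjusted p = 0.0151 by edgeR), with the more negative change in clone 7E in both. For Gigyf1 the change was 0.17 in clone 5F and -0.18 in clone 7E, from a higher level at day 0 in the latter. For Gigyf2 the change was -0.08 in clone 5F and -0.28 in clone 7E. These were 2 members lower and 0 higher, when 5.29% of all genes were called lower and 6.65% higher. The call of Gigyf1 was lost without the libraries of replicate 1 (adjusted p = 0.307), and that of Gigyf2 without those of replicate 1 (0.191), 2 (0.0513) or 3 (0.0924). This test shares its libraries with the comparisons above, so it is not separate evidence. For Eif4e2 the interaction was -0.03 ± 0.06 and for Ascc3 0.07 ± 0.08, and neither passed.

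The members decayed at very different rates. After 120 min of actinomycin D, Pelo was at 20.9% and 26.4% of its mock mean in the 2 libraries of clone 5F at day 0, and after 360 min at 6.29%, 6.35% and 5.79%. Gigyf1 was at 26.1% and 26.8% after 120 min and at 14.3%, 13.2% and 15.4% after 360 min, and Gtpbp2 at 32.0% and 28.1% and then at 23.0%, 19.6% and 22.0%. Ascc3 formed the opposite end, with 85.0% and 79.2% left after 120 min and 57.0%, 63.7% and 63.6% after 360 min. At 360 min no library of Ascc3 came near any library of the first 3.

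A line through the natural log of the counts gave Pelo a half-life of 92.6 min (95% interval 77.5 to 115 min) in clone 5F at day 0. Gigyf1 followed with 129 min (97.7 to 191 min) and Gtpbp2 with 165 min (119 to 269 min). These lie at the percentiles 4.8, 13.7 and 23.3 of the 10886 genes with a mean of at least 100 mock counts and a falling level, whose median was 277 min. Gigyf2, at 236 min (177 to 356 min), also lay below that median. The other 6 lay above it, between 321 min for Eif4e2 (284 to 370 min) and 510 min for Ascc3 (413 to 666 min, percentile 83.3). Ltn1 at 340 min, Zfp598 at 347 min, Abce1 at 357 min and Nemf at 366 min were neighbours whose intervals overlap. The intervals of the paralogs Gigyf1 and Gigyf2 overlap as well, but at 360 min Gigyf2 was at 34.1%, 35.7% and 32.8%, above every library of Gigyf1. The median half-life of the members was 331 min in clone 5F at day 0, 305 min in the libraries labelled day 4, 321 min in clone 7E at day 0 and 283 min at day 4.

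**Figure D2:**
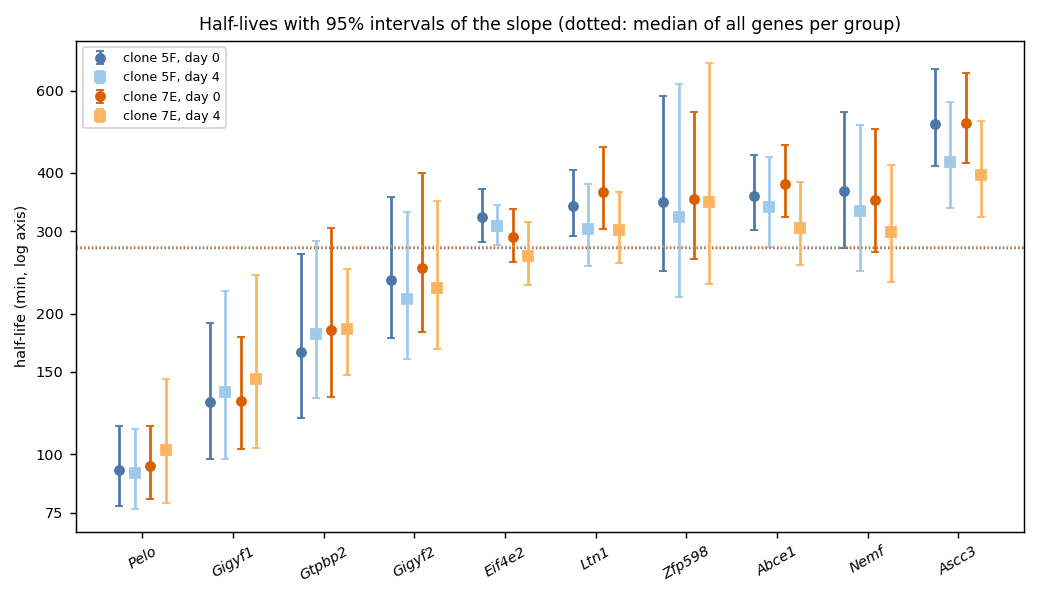
Half-lives by a fitted line (min, log axis) of the 10 mRNAs in each clone at day 0 and day 4. They are ordered by clone 5F at day 0, with the 95% interval of the slope. Dotted lines mark the median of all genes in each group, 277 to 279 min. The scaling holds all groups alike within each time point, so the likeness of these medians follows from it. Pelo lies at 91.0 to 102 min and Ascc3 at 397 to 511 min, and the 4 intervals of each mRNA overlap.

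The loss was not even over time. Zfp598 fell to 55.5% and 58.6% of its mock mean by 120 min in clone 5F at day 0 and was still at 50.3%, 48.0% and 45.6% at 360 min, so that its loss was 0.405 log2 per h over the first 120 min and 0.063 thereafter. For Gtpbp2 these rates were 0.863 and 0.119, for Gigyf2 0.574 and 0.100, and for Gigyf1 0.957 and 0.221. Abce1 was the exception with 0.173 and 0.167, a nearly straight course, and Eif4e2 and Ascc3 had ratios of 1.35 and 1.36. An early step is general in these data: the median ratio of the first rate to the next was 2.38 over 10395 genes that fell in both, and 93.2% of all genes with at least 100 mock counts fell faster at first. Pelo had 2.20, near that median, and 7.23 for Gtpbp2 was the highest of the members.

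**Figure D3:**
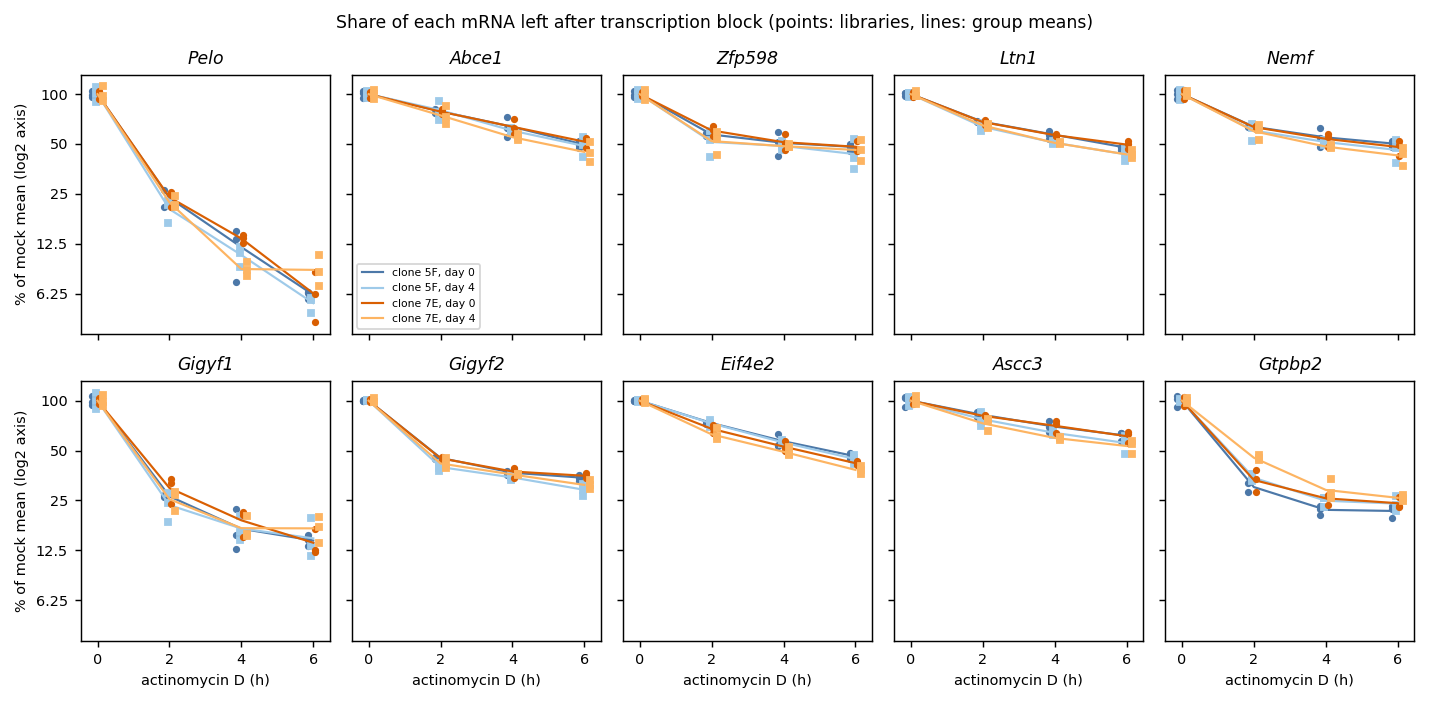
Share of each mRNA left (% of the mean of the mock libraries of the same clone and day, log2 axis) against time in actinomycin D (h). Points are libraries, set slightly apart, and lines join group means. Pelo falls to 4.19% to 10.7% by 6 h, whereas Ascc3 stays at 47.6% to 65.1%. In clone 7E at day 4, Gtpbp2 at 2 h lies above the other groups.

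The change in decay with 4OHT was tested as the interaction of time and day in each clone. In clone 5F, 0 of the 10 members were called slower and 0 faster by edgeR, when 0.134% of all genes were called slower and 0.0614% faster. At an unadjusted p under 0.05 the count was also 0, when 676 of 17901 genes passed that level, and DESeq2 and limma called 0. In clone 7E 0 members were called slower and 0 faster, when 0.408% and 0.488% of all genes were, and the count was again 0 at an unadjusted p under 0.05, which 1511 of 17417 genes passed, and by DESeq2 and limma. The median difference in slope over the members was -0.015 log2 per h in clone 5F and -0.023 in clone 7E, against 0.002 and -0.002 over all genes. The members' slopes differed by -0.029 to 0.032 log2 per h in clone 5F and by -0.038 to 0.049 in clone 7E. The intervals show what this test could not detect for an mRNA relative to the others. A change in decay shared by most mRNAs is removed by the scaling, which holds all groups alike within each time point. By each library's own spike-ins, the median difference in slope of all genes was -0.010 in clone 5F and 0.019 in clone 7E. The intervals hold the misfit of a straight line to bent courses as well as the spread between libraries. For Gigyf2 in clone 5F the SE was 0.049 by the line and 0.014 with 360 min set against mock alone. For Eif4e2 in clone 5F the 95% interval was -0.040 to 0.022 log2 per h, but for Gigyf1 it was -0.154 to 0.192, and for Pelo in clone 7E -0.120 to 0.219.

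Between the lines at day 0, 0 members were called slower and 0 faster, when 0.0281% and 0.00563% of all genes were. The interaction of time, clone and day called 0 members and 0 genes of the 18623 tested in either direction. DESeq2 called 0 members in both, as did limma and an unadjusted p under 0.05 with edgeR, which 813 of 17766 and 477 of 18623 genes passed. In the day 0 comparison the slope of Pelo differed by 0.020 ± 0.067 and that of Ascc3 by 0.001 ± 0.017 log2 per h (SE).

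**Figure D4:**
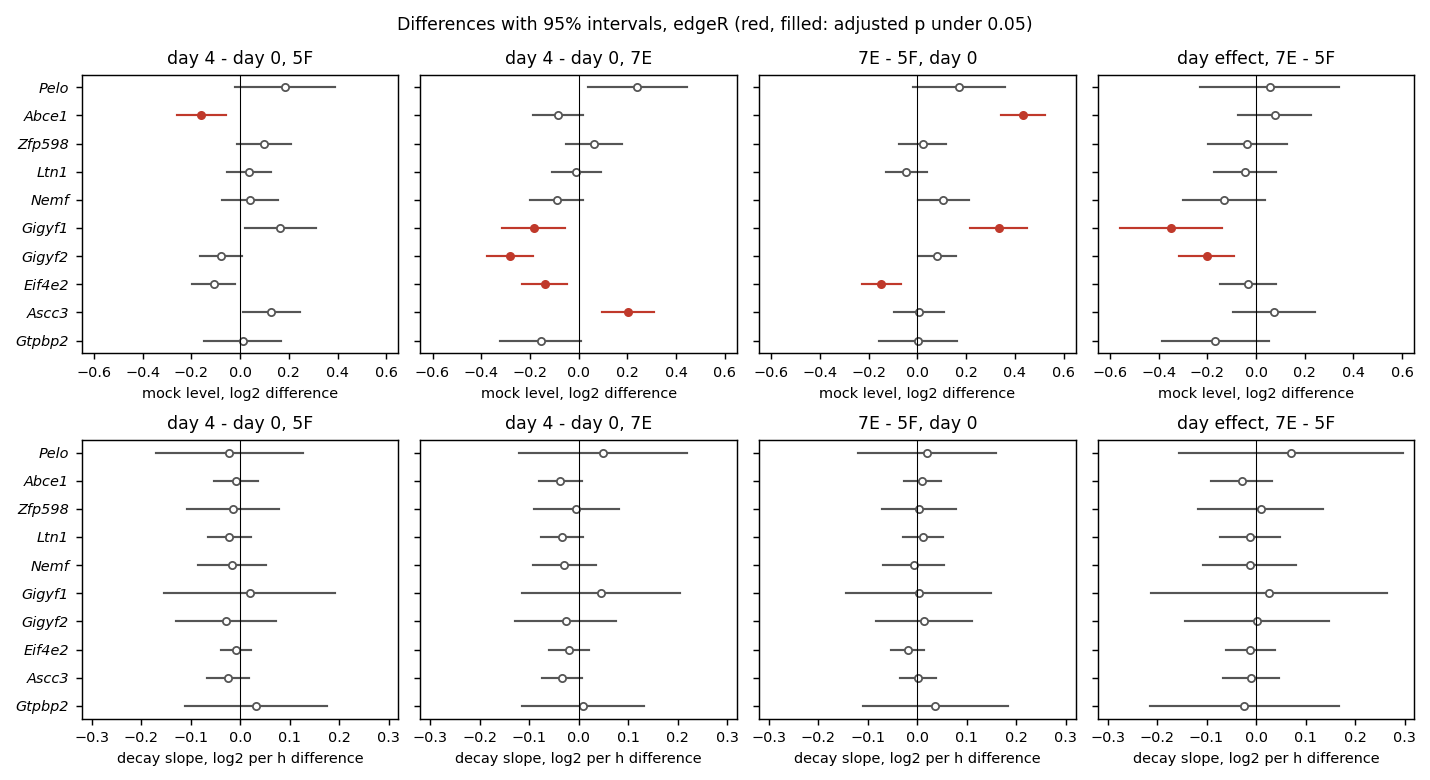
Differences of the 10 mRNAs with 95% intervals from edgeR, in mock level (upper row, log2) and in decay slope (lower row, log2 per h), for day 4 against day 0 in each clone, clone 7E against 5F at day 0, and the difference of the day effects between the clones. Filled red points have an adjusted p under 0.05. There are 1, 4, 3 and 2 in the upper row, from left to right, and 0 in the lower row, where the intervals of Pelo, Gigyf1 and Gtpbp2 are the widest.

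Because the course bends, each time point was also set against the mock libraries alone, an alternative chosen after seeing the data. Of the 10 members 0 passed in any comparison, and values that missed the adjusted threshold are given as such. Of all genes in clone 7E, 0.821%, 1.87% and 2.92% were called slower at 120, 240 and 360 min. Those called faster were 0.568%, 1.37% and 2.41%. In clone 7E, Gtpbp2 at 120 min was at 44.8%, 47.2% and 43.8% of its mock mean at day 4 and at 38.0%, 27.9% and 33.6% at day 0, groups that do not overlap. Its difference per h was 0.22 ± 0.07 (log2, SE; adjusted p = 0.151 by edgeR). By 360 min the same mRNA was at 24.8%, 26.9% and 26.0% at day 4 and at 26.2%, 22.7% and 23.2% at day 0, which overlap. Pelo at 240 min went the other way, with 7.98%, 8.69% and 9.69% left at day 4 and 12.7%, 14.2% and 13.5% at day 0 (-0.15 ± 0.06 log2 per h; adjusted p = 0.156 by edgeR), from 46 to 69 raw counts per library. At 360 min Pelo was at 8.43%, 10.7% and 6.97% at day 4 and at 8.40%, 6.20% and 4.19% at day 0, which overlap, and the difference had the opposite sign (0.08 ± 0.04 log2 per h; adjusted p = 0.287 by edgeR). Ltn1 at 360 min was at 42.7%, 41.2% and 45.9% at day 4 and 46.7%, 51.8% and 50.3% at day 0, with a difference of -0.03 ± 0.01 (adjusted p = 0.129 by edgeR).

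In CRAC, UV light links a tagged protein to the RNA it touches, and the attached fragments are sequenced. The deposited values split the scaled CRAC signal of each mRNA into shares on MTR4, the helicase of the nuclear exosome, on SKIV2L and on XRN1, the exonuclease that degrades from the 5′ end. These shares add up to 1, and AVEN binding is given as a ratio to their sum. The values come from pooled libraries (6 of SKIV2L, 5 of XRN1, 3 of MTR4 and 3 of AVEN in this series), so they have no replicate error and the depth behind a single value is unknown. The paper counts 3 published MTR4 datasets among its replicates, so the MTR4 pool may hold libraries from outside this series.

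SKIV2L held the largest share for 4 members, XRN1 for 3 and MTR4 for 3, while over all mRNAs of the table these proteins held the largest share for 26.5%, 38.1% and 35.4%. The mRNAs with most SKIV2L were Gigyf2 at 0.533 (percentile 91.3 of all mRNAs), Nemf at 0.517 (90.0), Abce1 at 0.497 (87.8) and Ltn1 at 0.455 (83.2). Both factors of the freed large subunit are thus among them. XRN1 led for Gigyf1 at 0.707 (98.4), Zfp598 at 0.502 (83.0) and Eif4e2 at 0.478 (79.3). MTR4 led for Ascc3 at 0.520 (81.9), Pelo at 0.516 (81.5) and Gtpbp2 at 0.505 (80.2). The paralogs Gigyf1 and Gigyf2 were at opposite ends, since Gigyf1 had the lowest SKIV2L share of the members, 0.136, and Gigyf2 the highest. Their listed transcripts differ in kind, with a 3′ UTR of 2231 nt for Gigyf1 and of 0 nt for Gigyf2. The paper reports XRN1 as enriched in 3′ UTRs and SKIV2L as biased to 5′ UTRs and coding sequence. The part of this difference in the contrast was not tested.

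Over the members the median share was 0.306 for SKIV2L, 0.266 for MTR4 and 0.280 for XRN1, beside medians of 0.267, 0.319 and 0.337 over all 7240 mRNAs. For AVEN the median ratio was 0.342 over the members and 0.296 over all mRNAs. Gtpbp2 had the highest AVEN ratio of the members at 0.737 (percentile 97.3) and Zfp598 the next at 0.546 (91.4), whereas Gigyf1 had the lowest at 0.239 (34.1). The 4 mRNAs with most SKIV2L had AVEN ratios of 0.274 to 0.411.

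**Figure D5:**
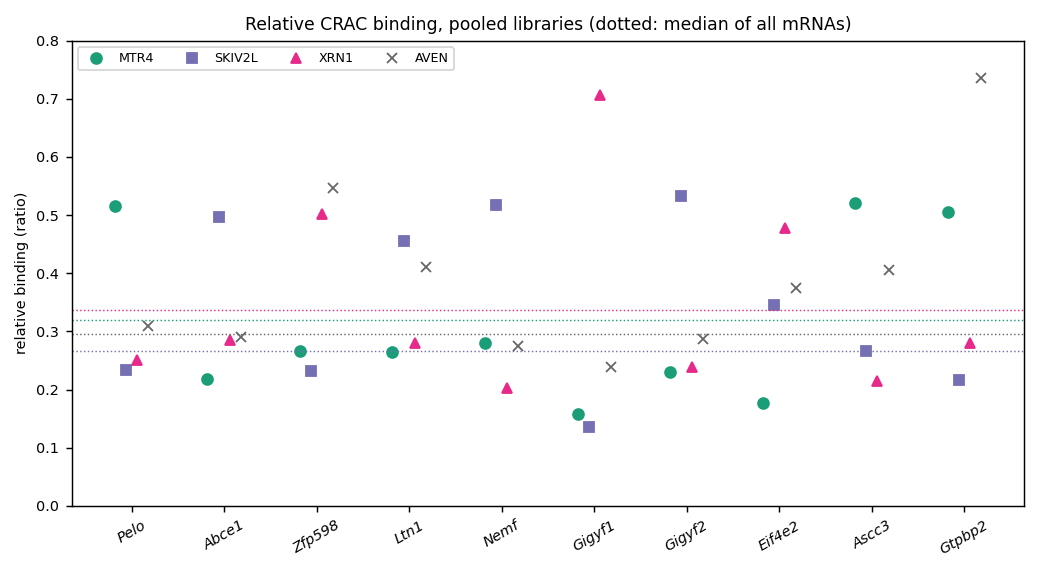
Relative CRAC binding (ratio, axis from 0) of the 10 mRNAs to MTR4, SKIV2L and XRN1, whose shares add up to 1, and to AVEN. Dotted lines are medians of all 7240 mRNAs. The largest share is on SKIV2L for Abce1, Ltn1, Nemf and Gigyf2, on XRN1 for Zfp598, Gigyf1 and Eif4e2, and on MTR4 for Pelo, Ascc3 and Gtpbp2.

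By the fitted line, the 4 mRNAs with most SKIV2L had half-lives of 236 to 366 min in clone 5F at day 0. The slope of none of them passed the test after 4OHT. The quickest 3 mRNAs, Pelo, Gigyf1 and Gtpbp2, were also the least abundant in the tagged lines, with 4.06, 7.28 and 4.43 RPKM against 340 for Abce1 and 332 for Eif4e2, each the deposited median over the lines. The 10 mRNAs had a median coding length of 2931 nt beside 1458 nt over all mRNAs of the table, and 8 of them lay above the latter, from 1800 nt for Abce1 to 6597 nt for Ascc3. Pelo with 1158 nt and Eif4e2 with 738 nt were the shorter ones. For Gigyf2 the table lists a transcript of 3876 nt that is all coding sequence, so its UTRs are not part of its binding values.

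A further 32 genes of the same pathways, such as partners of PELO, subunits of the ASCC complex, deubiquitinases and sensors of collisions, were counted as a list. All 32 were tested. In clone 5F 6 were higher and 3 lower with 4OHT, beside 12.8% and 11.6% of all genes, led by Gcn1, a sensor of stalled ribosomes (0.41, adjusted p = 1.91e-05), Usp9x, a deubiquitinase (0.26, adjusted p = 3e-04), and Map3k20, the kinase ZAK that responds to collisions (-0.25, adjusted p = 0.00174). In clone 7E 6 were higher and 5 lower, beside 20.7% and 19.4% of all genes, led by Tcf25 (0.39, adjusted p = 1.38e-07), Ankzf1, which releases the stalled peptide (-0.50, adjusted p = 4.1e-07), and Gcn1 (0.29, adjusted p = 0.000323), all by edgeR. Between the lines at day 0, 8 were higher and 4 lower in clone 7E, beside 20.0% and 19.7% of all genes, led by Tcf25 (0.66, adjusted p = 2.13e-12), Usp10 (0.71, adjusted p = 5.36e-12) and Gcn1 (0.38, adjusted p = 2.28e-06) by edgeR. TCF25 is a subunit of the complex that acts on the freed large subunit together with LTN1, and USP10 removes ubiquitin from the small subunit. The median difference of the list was -0.005, 0.035 and -0.004 (log2) in these comparisons, close to that of all genes. For the day effect between the clones 1 was higher, Tcf25 (0.20, adjusted p = 0.0139), and 1 lower, Usp9x (-0.20, adjusted p = 0.0369), beside 6.65% and 5.29% of all genes. Without the libraries of replicate 1 or of replicate 3 both counts were 0, and without those of replicate 2 they were 1 and 0. In decay, 1 of the 32 was called, Map3k20, slower in clone 7E with 4OHT (0.15 log2 per h, adjusted p = 0.0444 by edgeR), beside 0.408% of all genes. The count was 0 by limma, with the replicate block, with no filter beyond 1 count, without the 360 min libraries and without the libraries of any 1 replicate number. With the libraries of 1 replicate number left out, the calls of the list in mock level were 3 to 7 higher and 2 to 3 lower in clone 5F, 3 to 6 and 1 to 5 in clone 7E, and 6 to 9 and 2 to 3 between the lines, where the block gave 10 and 9.

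The genes with the most alike pattern over the 16 group means were sought among 10583 other genes for the members whose mock levels ranged most, Abce1, Pelo and Gigyf1. Pearson's r of the log2 means was highest with Mcm5 for Abce1 (0.995), with Zbtb48 for Pelo (0.996) and with Ash1l for Gigyf1 (0.997). These points share the decay over time that all genes show, and 4292 other genes had an r above 0.95 with Pelo, 3216 with Gigyf1 and 289 with Abce1.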

How the data were processed

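Counts of 47 half-life libraries and pooled CRAC values were used. The authors' deposited counts are raw: reads were mapped to mm10 (GRCm38) with STAR, per the labels and methods, kept where unique, and counted per gene. Relative binding was deposited by the authors as ratios of pooled CRAC signal, also scaled to RPKM, and the authors' RPKM values give mRNA abundance in the lines with a tagged protein. Columns of the authors' own fold changes, adjusted p-values and half-lives were not used, while 0 other per-sample columns remained unmapped.

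In R 4.3.3, size factors (DESeq2 1.42.0) within each time point were divided by 1 ERCC factor per time point, from 34 ERCC sequences with a mean above 50 counts. Differences were tested by edgeR 4.0.16 (glmQLFit, glmQLFTest) after filterByExpr, with Benjamini-Hochberg adjustment over all genes and a threshold of 0.05, and decay as time by day or clone in log2 per h. The alternatives included limma 3.58.1 on log2(normalized count + 1). Half-lives are -ln(2) divided by the slope from a linear fit of the natural log of normalized count + 1 against minutes. Symbols came from Gencode M21.

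The members and lists were chosen with earlier results of these data known. The named genes are all 10 members, Skiv2l and Aven, for the partner list the 3 called genes of smallest adjusted p per comparison, and the best-matching gene for 3 members. Same-numbered libraries deviated together between the clones at day 0 in mock (correlations of 0.241 to 0.500 in 3 of 3 pairs). In every other comparison the median correlation was negative, at -0.266 to -0.028. Single pairs still reached 0.867 in the comparisons over more groups. The chi-square per gene between replicates was at least 2.587, so none was treated as a copy. Alternatives were other scalings, tools and filters, the replicate block and leaving out replicates. The count tests and the half-life fit were tested on simulated data. For the half-life fit these fell at a constant rate, so its behaviour on bent courses was not tested.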

Additional observations from a re-analysis of the deposited data

Results flagged for a closer look

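The change of mock level with 4OHT differed between clones 7E and 5F for 2 members, by the interaction of clone and day in edgeR over 12 libraries. For Gigyf1 the difference was -0.35 (log2, adjusted p = 0.0246), with a rise of 0.17 in clone 5F that did not pass and a fall of 0.18 in clone 7E that did. For Gigyf2 it was -0.20 (log2, adjusted p = 0.0151), with -0.08 in clone 5F and -0.28 in clone 7E. Over the alternatives without the libraries' own spike-ins, the adjusted p ranged from 0.0022 to 0.307 for Gigyf1 and from 0.00357 to 0.191 for Gigyf2. Groups of 3 libraries were too small to test single libraries as outliers.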

How the results depend on the processing

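All 750 alternative values of the members' decay kept the side of the threshold, and of 430 mock values 385 did. The signs of the members' decay differences still moved with the scaling. For the day effect between the clones, 4 were positive and 6 negative. Scaled to the ERCC spike-ins per library, all 10 were positive. The median of all genes then went from -0.004 to 0.03 log2 per h. In clone 7E, 3 positive and 7 negative became 5 and 5. Between the lines at day 0, 8 and 2 became 5 and 5. In clone 5F the numbers stayed at 2 and 8. In mock level, scaling by each library's own ERCC spike-ins called 0 members higher and 10 lower in clone 7E and 10 lower for the day effect between the clones. Beside them, 90.1% and 83.2% of all genes were called lower, with the median of all genes shifted by -1.105 and -1.029 (log2). With this scaling, directions turned for Pelo (-0.86), Zfp598 (-1.04) and Ascc3 (-0.90) in clone 7E and for Pelo (-0.97), Abce1 (-0.96) and Ascc3 (-0.96) in the day effect. Between the lines at day 0 they turned for Ascc3 (-0.15), which was called. They also turned for Zfp598 (-0.14), Nemf (-0.05), Gigyf2 (-0.08) and Gtpbp2 (-0.16), which were not. There 3 members were lower and 2 higher, beside 38.6% and 9.93% of all genes. In clone 5F, Ltn1, Nemf and Gtpbp2 turned without a call. That scaling moved the median half-life of the members in clone 7E at day 4 to 317.7 min. In clone 5F, 2 members were lower by DESeq2, with a mean of at least 100 counts, or with all 12 mock libraries in 1 fit. Beside them, 9.65%, 17.2% and 10.8% of all genes were lower. The 1 fit called 2 members higher in clone 7E, beside 20.5% of all genes. With the replicate block, 0 members were lower in clone 5F, beside 7.95% of all genes. Between the lines, where the numbers pair the libraries, 4 were higher, beside 24.7%. Within a clone the mock libraries of day 0 and day 4 share only a number. The block lost Abce1 in clone 5F and Eif4e2 in clone 7E (adjusted p = 0.0834 and 0.0578 by edgeR). Same-numbered mock libraries correlated at -0.453 to -0.084 in clone 5F and -0.416 to -0.028 in clone 7E. Leaving out the libraries of 1 replicate number gave 0 to 2 members higher and 0 to 2 lower in clone 5F, 1 to 4 lower in clone 7E, 0 to 1 lower between the lines and 0 to 1 lower for the day effect. In the same order, the shares of all genes were 6.65% to 13.6%, 4.6% to 13.1%, 11.8% to 17%, 13.9% to 18.3% and 1.62% to 3.58%. Scaled to RPKM, the median shares were 0.2581 for MTR4, 0.3198 for SKIV2L and 0.2783 for XRN1. Time points as levels, single time points, and a term for or removal of the 12 libraries numbered in multiples of 4 were chosen after seeing the data and called 0 members. In clone 7E, time points as levels called 3.62% of all genes slower and 2.9% faster. Counts of Pelo fell to 24 by 360 min, which limits its late values.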
